A study of Mus musculus with 6 samples.

Results

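Voltage-gated sodium channel subunits were followed in the carotid bodies of 2 inbred mouse strains, DBA/2J and A/J. The set holds 8 genes: 5 pore-forming alpha subunits (Scn1a, Scn3a, Scn9a, Scn7a and Scn4a) and 3 auxiliary beta subunits (Scn2b, Scn3b and Scn4b). A probe set, the group of short oligonucleotides that reads a transcript on the array, was counted when the platform annotation gave a member's symbol alone. This gave 19 of 45037 probe sets for 7 of the 8 genes. Scn4a, the alpha subunit of adult skeletal muscle, had no probe set named here and was not analysed here.

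The carotid body sits where the common carotid artery divides and senses oxygen in arterial blood. Total RNA came from male mice aged 28 days that had received no treatment. Each of the 3 DBA/2J arrays held a pool of 36 to 38 carotid bodies from 18 or 19 mice, and each of the 3 A/J arrays a pool of 38 to 42 from 19 to 21 mice. The comparison asked which transcripts differ between the strains. Each array is a pool, so a p-value measures the spread between pools, from which the spread between single mice cannot be read.

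The alpha subunit forms the sodium-selective pore that opens on depolarisation and closes within milliseconds, and so drives the upstroke of the action potential. The beta subunits are single-pass membrane proteins with an immunoglobulin-like domain that set the gating and the placement of the channel; those of Scn2b and Scn4b are linked to the alpha subunit by a disulfide bond and that of Scn3b is not. In the carotid body, action potentials run in the afferent fibres, whose cell bodies lie outside the organ in the petrosal ganglion. The glomus (type I) cells of some species carry sodium currents as well. Scn7a encodes an atypical member of the alpha family that is known as a sodium sensor in glia of the brain and is also made by Schwann cells.

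Signals are in the deposited linear units, in which the 2%-trimmed mean of every array is 500. A log2 difference is the DBA/2J mean minus the A/J mean of log2(signal + 16), with p from limma adjusted by Benjamini-Hochberg over all 27022 probe sets tested. The tested probe sets are the upper 60% by mean log2 level over the 6 arrays, which sets the lower limit at a signal of 114.1. Of the 19 member probe sets, 12 were bright enough to be tested, covering 6 genes. Median signals of the arrays lay between 163.6 and 183. Of the defining markers of type I cells, 14 of the 15 with a probe set were bright enough to be tested, and 9 of those 14 rose in DBA/2J while 0 fell. All 15 tested markers of skeletal muscle fell. Whether a dim probe set lies above background is unknown, since no detection calls were used here.

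Among the subunits, Scn7a was lower in DBA/2J on each of its probe sets, and 1 of these passed the test. Scn2b had higher signals in DBA/2J on all of its probe sets and its neighbour Scn4b lower ones, but neither passed the test. The probe sets of Scn9a gave unlike differences, Scn1a was too dim for testing, and Scn3a and Scn3b overlapped between the strains. Of the 12 tested probe sets 1 passed an adjusted p of 0.05, where 3.27% of all probe sets tested passed (1.41% lower and 1.86% higher in DBA/2J). The median log2 difference of the 12 was -0.30 (7 negative and 5 positive), against 0.01 over all probe sets tested. The arrays of the strains did not overlap in 7 of the 12, where 21.1% of all probe sets tested did not overlap.

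**Figure D1:**
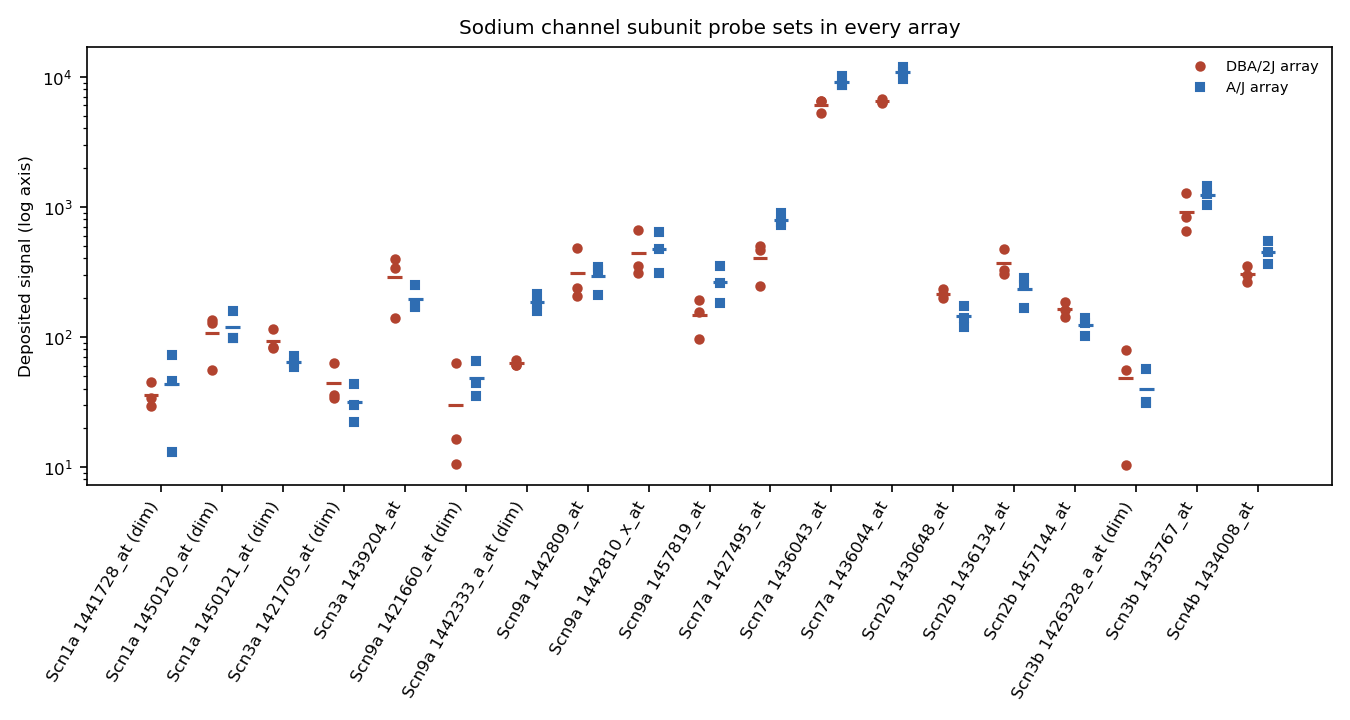
Deposited signal (log axis) of all 19 probe sets of the sodium channel subunits, with 1 point per array and a bar at each strain's mean; probe sets marked dim were under the level needed for testing. The 3 DBA/2J arrays lay under the 3 A/J arrays on all 3 Scn7a probe sets, Scn4b and 1 of 5 Scn9a probe sets. The DBA/2J arrays lay above the A/J arrays on all 3 Scn2b probe sets and 1 of 3 Scn1a probe sets. These Scn9a and Scn1a probe sets were dim. The strains thus did not overlap on 9 of the 19. Over all 45037 probe sets, 18.0% did not overlap, in either direction.

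The stretches upstream of Scn7a, Scn2b and Scn4b are shown because these genes, each read through its brightest probe set, had the smallest p among the members. Scn2b and Scn4b also lie next to each other. Each stretch is the 250 bases before the RefSeq gene start (GRCm38.p6), written 5′ to 3′ along the gene, with every CG dinucleotide in capitals. They are Scn7a at chr2:66784911-66785160 (minus strand), Scn2b at chr9:45117626-45117875 (plus strand) and Scn4b at chr9:45138374-45138623 (plus strand).
Scn7a: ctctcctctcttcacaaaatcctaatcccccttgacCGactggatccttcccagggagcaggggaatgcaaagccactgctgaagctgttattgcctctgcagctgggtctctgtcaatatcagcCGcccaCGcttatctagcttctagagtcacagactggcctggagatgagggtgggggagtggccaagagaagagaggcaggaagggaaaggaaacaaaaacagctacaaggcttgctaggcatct
Scn2b: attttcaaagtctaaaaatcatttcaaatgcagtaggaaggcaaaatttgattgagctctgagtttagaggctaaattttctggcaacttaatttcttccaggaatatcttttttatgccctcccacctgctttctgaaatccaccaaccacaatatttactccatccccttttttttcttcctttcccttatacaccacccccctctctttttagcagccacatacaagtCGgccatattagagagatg
Scn4b: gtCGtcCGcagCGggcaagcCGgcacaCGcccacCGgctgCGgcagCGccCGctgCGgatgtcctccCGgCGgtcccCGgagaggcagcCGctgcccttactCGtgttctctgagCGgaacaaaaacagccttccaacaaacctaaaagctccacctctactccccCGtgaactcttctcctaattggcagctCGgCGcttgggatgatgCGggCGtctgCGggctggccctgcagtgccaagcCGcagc
The Scn4b stretch held 23 CG dinucleotides, that of Scn2b 1 and that of Scn7a 3, where the median over 32851 RefSeq promoters of this length was 6. Their GC content was 66% for Scn4b, 38.4% for Scn2b and 53.2% for Scn7a, with a median of 52.4% over all promoters. The E-box core CANNTG, searched on both strands, occurred 2 times in the Scn2b stretch, 1 time in that of Scn7a and 0 times in that of Scn4b. It is found in 66.2% of all promoters. The TATA box letters TATAAA, found in 12.4% of all promoters, did not occur in these windows on either strand. The SOX site core ACAAAG, found in 16.5%, did not occur there either. The same held for ACGTG, the core of hypoxia response elements, which 16.6% of all promoters hold. The promoter table held 6 of the 8 members, and Scn3a and Scn3b were not in it.

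Scn7a, the atypical sodium-sensing channel, had the smallest p of the members. Its probe set 1436044_at read 6322.6, 6264.9 and 6746.9 on the DBA/2J arrays, against 9617, 10837.9 and 11872.6 on the A/J arrays. The strains did not overlap, and the DBA/2J arrays lay close together. The mean was 6445 ± 263 in DBA/2J and 10776 ± 1129 in A/J (SD, n = 3 each), and Scn7a fell by 0.74 on the log2 scale (SE 0.15, limma adjusted p = 0.029).

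The second Scn7a probe set, 1436043_at, is annotated to the same source sequence as the first, so these are not separate readings of the gene. It read 6496.4, 5285.8 and 6513.3 in DBA/2J, against 10068.6, 8543.5 and 8598.1 in A/J, again without overlap. Its log2 difference was -0.57 (SE 0.16), and it did not pass (limma adjusted p = 0.102). The third, 1427495_at, comes from another source sequence and read 468.2, 243.5 and 501.4 in DBA/2J, against 889.9, 727.3 and 758.3 in A/J. Here DBA/2J array 2 stood below the other two DBA/2J arrays, and the strains did not overlap. Its log2 difference of -1.0 (SE 0.28) did not pass either (limma adjusted p = 0.106).

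The direction of all 3 Scn7a probe sets was the same under all 18 alternatives tried, while the call depended on the settings. For many of these the direction was fixed in advance. Leaving arrays out cannot turn the sign where the strains do not overlap, and another filter or no trend leaves the estimate as it is. Probe set 1436044_at passed under 8 of the 18 alternatives and not under 10. Its adjusted p was 0.065, 0.089 and 0.159 without A/J arrays 1, 2 and 3, and 0.135 without DBA/2J array 1. It was 0.041 and 0.042 without DBA/2J arrays 2 and 3. With every probe set tested regardless of level it was 0.074, and after quantile normalization 0.054.

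Glial markers were followed beside Scn7a. Of 16 markers of Schwann and type II glia, the supporting cells of the organ, 13 had a probe set and 12 were tested. Of the 12, 1 fell and 11 did not pass, and their median log2 difference was -0.52. An unadjusted limma p under 0.05 was reached by 6 of the 12, against 15.3% of all probe sets tested. The summed signal of the 13 ran from 32381 to 36600 in DBA/2J and from 43708 to 51862 in A/J. The marker that fell was Ugt8a, an enzyme of myelin lipid synthesis, at 128 ± 14.4 in DBA/2J and 656 ± 101 in A/J (SD, n = 3 each, log2 difference -2.22). Of these markers 0 were listed at 0 on any array, and 1 of them, Pou3f1, was under the level needed for testing. The part of glial RNA in the Scn7a difference was not tested. In pooled tissue, fewer cells of a type and less RNA per cell cannot be told apart.

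Skeletal muscle RNA also differed between the strains and was followed as a second measure of what the pools held. The summed signal of its 16 markers was 2218, 3551 and 2025 on DBA/2J arrays 1, 2 and 3, and 135561, 54427 and 112679 on A/J arrays 1, 2 and 3. Ckm, the muscle form of creatine kinase, averaged 126 ± 42.5 in DBA/2J and 11904 ± 4810 in A/J (SD, n = 3 each). Among the A/J arrays, Scn7a probe sets 1436043_at and 1427495_at were highest on array 1 and lowest on array 2, the same order as the muscle signal, and 1436044_at was highest on array 3 and lowest on array 1. Among the DBA/2J arrays, each Scn7a probe set was lowest on array 2, where the muscle signal was highest. Without both A/J arrays 1 and 3 the log2 differences were -0.75 for 1436044_at, -0.49 for 1436043_at and -0.89 for 1427495_at. None passed in that fit, which has a single A/J array, chosen by its muscle signal and assumed to vary like the others (limma adjusted p = 0.428, 0.689 and 0.668). The part of muscle RNA in the Scn7a difference was not tested.

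**Figure D2:**
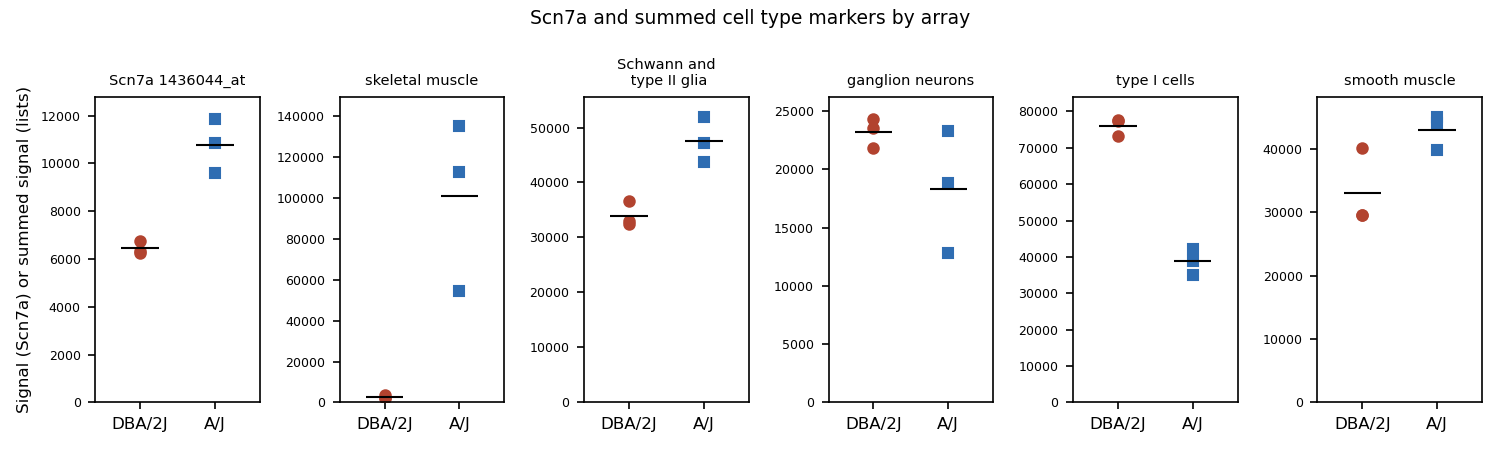
Signal of Scn7a probe set 1436044_at and summed signal of 5 marker lists, on linear axes from 0, with 1 point per array and a bar at each strain's mean. Scn7a, the glial list and the skeletal muscle list were lower in the DBA/2J arrays without overlap, and the type I cell list was higher (73161 to 77733 in DBA/2J, 35166 to 42065 in A/J).

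Scn9a encodes the alpha subunit of peripheral sensory and sympathetic neurons, and its 5 probe sets gave different pictures. Probe set 1457819_at read 154.2, 191.6 and 95.7 in DBA/2J, against 351.2, 182.6 and 257.9 in A/J. The groups overlapped at DBA/2J array 2 and A/J array 2, and the log2 difference of -0.78 (SE 0.32) did not pass (limma adjusted p = 0.274). Probe sets 1442809_at and 1442810_x_at, which share a source sequence, had log2 differences of 0.0033 (95% interval -0.75 to 0.76) and -0.13 (-0.91 to 0.65). Both were highest in DBA/2J on array 2, at 483 and 664.1, and lowest in A/J on array 2, at 210.8 and 307.6.

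Scn9a probe set 1442333_a_at, too dim for the test, did not overlap between the strains. It read 61.1, 60.2 and 66 in DBA/2J, against 213.4, 157.7 and 179.8 in A/J, with a mean of 62.4 ± 3.12 in DBA/2J and 184 ± 28 in A/J (SD, n = 3 each). In the fit over all 45037 probe sets, where 1.82% passed, its log2 difference was -1.34 (SE 0.27, limma adjusted p = 0.0497). The last, 1421660_at, lay between 10.5 and 62.4 in DBA/2J and between 35.2 and 65.4 in A/J. The suffix _a marks probe sets that can read several transcript forms of a gene and _x those whose probes can share sequence with other genes. Which transcript form each Scn9a probe set reads was not tested.

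Within A/J, all 5 Scn9a probe sets except 1421660_at had their lowest signal on array 2, which also had the least skeletal muscle signal. Within DBA/2J, all 5 except 1442333_a_at had their highest signal on array 2, which had the most skeletal muscle signal of that strain. The summed signal of 13 ganglion neuron markers was 21799, 23542 and 24355 on DBA/2J arrays 1, 2 and 3. On A/J arrays 1, 2 and 3 it was 18815, 12814 and 23286. It too was lowest on A/J array 2, but among the DBA/2J arrays it was highest on array 3. Of those 13 markers 0 passed with limma and 5 had an unadjusted p under 0.05, and their median log2 difference was 0.22. Isl1, a transcription factor of sensory and sympathetic neurons, had 2019 ± 983 in DBA/2J and 714 ± 127 in A/J, and Nefm, a neurofilament subunit, had 152 ± 71.5 in DBA/2J and 346 ± 83.3 in A/J (SD, n = 3 each). Neither passed (limma adjusted p = 0.121 and 0.127). The part of neuronal or muscle RNA in the Scn9a values was not tested.

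The other neuronal alpha subunits gave no call. For Scn3a, an alpha subunit best known from the developing brain, probe set 1439204_at read 337.9, 139.5 and 394.4 in DBA/2J, against 171.9, 248.2 and 170.5 in A/J. DBA/2J array 2 was the lowest of all 6 arrays while the other DBA/2J arrays were the highest. The log2 difference of 0.43 (95% interval -0.39 to 1.25) did not pass (limma adjusted p = 0.668), and it was 0.86 without DBA/2J array 2. The other Scn3a probe set was dim, with 33.8 to 62.4 in DBA/2J and 22.2 to 43.1 in A/J.

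Scn1a, an alpha subunit of central and large sensory neurons, had 3 probe sets and none was bright enough to be tested. The brightest, 1450120_at, read 135.2, 128.6 and 55.6 in DBA/2J, against 159, 98.7 and 98.3 in A/J. Probe set 1450121_at, from the same source sequence, read 114.4, 83.2 and 81.6 in DBA/2J and 62.9, 58.2 and 70.7 in A/J. The strains did not overlap on it, with DBA/2J higher, but the log2 difference of 0.44 did not pass in the fit over all probe sets (limma adjusted p = 0.614). The third lay between 29.4 and 44.6 in DBA/2J and between 13 and 72.2 in A/J.

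The beta subunits had differences of both signs, and none passed. Scn2b, whose product binds the alpha subunit covalently, had higher DBA/2J signals on all 3 of its probe sets without overlap. Probe set 1436134_at read 326.5, 301.3 and 473.2 in DBA/2J, against 166.9, 249.6 and 280.6 in A/J, with a log2 difference of 0.63 (SE 0.26, limma adjusted p = 0.294). Probe set 1430648_at read 196.9, 214 and 231.8 in DBA/2J, against 119.7, 139.9 and 172.7 in A/J, with a log2 difference of 0.53 (SE 0.23, limma adjusted p = 0.303). The dimmest, 1457144_at, read 142.3, 160.3 and 184.6 in DBA/2J, against 100.6, 139.2 and 128.2 in A/J (log2 difference 0.37, SE 0.24, limma adjusted p = 0.552). The annotation gives these 3 probe sets different source sequences, and each placed every DBA/2J array above every A/J array. All 3 were read on the same 6 arrays, so they are not separate tests of the strain difference. Of all probe sets tested, 21.1% did not overlap between the strains, in either direction.

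Scn4b, the other covalently bound beta subunit, had lower signals in DBA/2J. Its only probe set, 1434008_at, read 263.9, 300 and 351.9 in DBA/2J, against 542.2, 365 and 447.7 in A/J. The strains did not overlap, but the highest DBA/2J array and the lowest A/J array were close. The mean was 305 ± 44.2 in DBA/2J and 452 ± 88.7 in A/J (SD, n = 3 each), and the log2 difference of -0.53 (SE 0.22) did not pass (limma adjusted p = 0.287). Among the A/J arrays the signal was highest on array 1 and lowest on array 2, as the skeletal muscle signal was. Among the DBA/2J arrays it was highest on array 3, where the skeletal muscle signal was lowest. Without both A/J arrays 1 and 3, which leaves a single A/J array, the difference was -0.26 and did not pass (limma adjusted p = 0.887). The part of muscle RNA in the Scn4b difference was not tested. The difference between Scn2b and Scn4b in direction was not itself tested.

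Scn3b, the noncovalently bound beta subunit, overlapped between the strains. Its brighter probe set, 1435767_at, read 647.6, 1263.8 and 830.1 in DBA/2J, against 1243, 1033.9 and 1432 in A/J. DBA/2J array 2 lay among the A/J arrays and the other DBA/2J arrays below them. The log2 difference was -0.47 (95% interval -1.07 to 0.12, limma adjusted p = 0.463), and without DBA/2J array 2 it was -0.73. With arrays weighted by their fit, Scn3b passed at -0.83 and Scn4b at -0.66 (limma adjusted p = 0.038 and 0.048), both lower in DBA/2J. The other Scn3b probe set was dim, at 10.4 to 79.2 in DBA/2J and 30.7 to 57 in A/J.

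**Figure D3:**
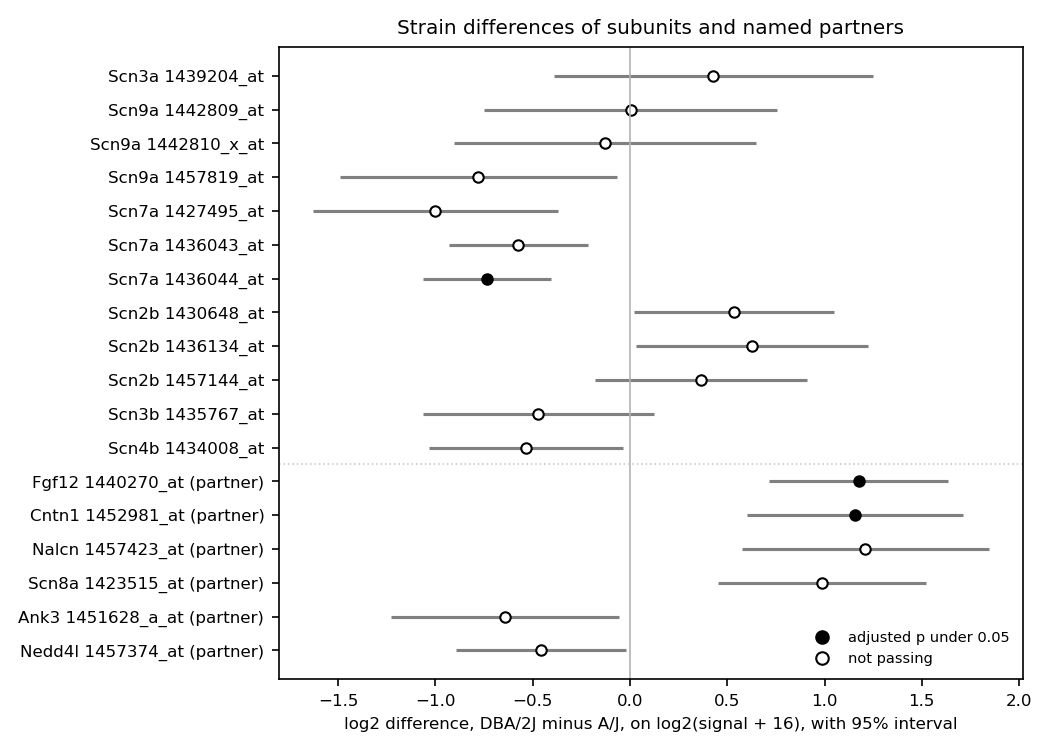
Log2 difference (DBA/2J minus A/J, on log2(signal + 16)) with its 95% interval for the 12 tested subunit probe sets and, under the dotted line, 6 partner genes. Filled points passed an adjusted p of 0.05: Scn7a 1436044_at at -0.74, Fgf12 at 1.18 and Cntn1 at 1.16.

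The design text sets its own call rule, which asks for a 1.5-fold difference, a p under 0.05, and at least 6 counts among the 9 pairings of arrays. Read as the fold in each pairing plus limma's unadjusted p, 3 of the 12 subunit probe sets met it, all lower in DBA/2J, where 10.1% of all probe sets tested met it. They were Scn7a 1436044_at and 1427495_at, each with 8 of 9 pairs, and Scn9a 1457819_at with 6. Scn7a 1436043_at reached 5 pairs, Scn2b 1430648_at and 1436134_at 5 each, and Scn4b 4. An unadjusted limma p under 0.05 was reached by 7 of the 12 subunit probe sets, against 15.3% of all probe sets tested.

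The wider channel complex was described with 26 genes: other subunits, proteins that bind or cluster the channels at axon initial segments and nodes, enzymes that modify or turn them over, and Nalcn, a related leak channel. Each was read through its brightest probe set. Of the 19 tested, 2 rose in DBA/2J and 17 did not pass. Over all genes tested, 3.77% passed. The median log2 difference of the 19 was -0.05, against 0.03 over 13006 genes. A further 4 were too dim for testing (Scn10a, Scn11a, Fgf14 and Cntnap1, named after their values were seen), and 3 had no probe set named here.

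Fgf12, an intracellular fibroblast growth factor homologue that binds the tail of the alpha subunit, was 1 of the 2 that rose. Its probe set 1440270_at read 450.5, 490.3 and 396.3 in DBA/2J, against 210.1, 193.4 and 162.4 in A/J, with no overlap. The log2 difference was 1.18 (SE 0.20, limma adjusted p = 0.016). The other tested Fgf12 probe set, 1436432_at, had 0.69 and did not pass (limma adjusted p = 0.189). Cntn1, the adhesion protein contactin that associates with sodium channels in axons, read 2607, 2526.4 and 3653.1 in DBA/2J on 1452981_at, against 1607.7, 939.9 and 1406.3 in A/J. Its log2 difference was 1.16 (SE 0.25, limma adjusted p = 0.039). Another Cntn1 probe set passed at 0.95 (limma adjusted p = 0.033), and the third had -0.47 and did not pass. Fgf12 passed without any single array other than A/J array 3 (limma adjusted p = 0.079) or DBA/2J array 1 (limma adjusted p = 0.088). Cntn1 passed without DBA/2J array 2 (limma adjusted p = 0.030), and its adjusted p was 0.064 to 0.127 without each of the others.

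Scn8a, the alpha subunit of mature nodes of Ranvier, read 406.3, 411.7 and 474.1 in DBA/2J on its brightest probe set 1423515_at, against 244.7, 151.1 and 245 in A/J. Its log2 difference of 0.99 did not pass (limma adjusted p = 0.062). Its other tested probe set, 1457412_at, passed: it read 324.5, 374.8 and 260.4 in DBA/2J, against 116.2, 125.9 and 115.8 in A/J, and rose by 1.30 (SE 0.22, limma adjusted p = 0.015). Of the 5 Scn8a probe sets, all but the dim 1442208_at placed every DBA/2J array above every A/J array. Over all probe sets, 18.0% did not overlap between the strains, in either direction. With the mean of all tested probe sets standing for each gene, Scn8a passed with a log2 difference of 1.14 (limma adjusted p = 0.0082). Fgf12 passed at 0.93 (limma adjusted p = 0.022) and Cntn1 did not, at 0.55 (limma adjusted p = 0.166).

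Nalcn, which carries a voltage-independent sodium leak, had 1796 ± 640 in DBA/2J and 730 ± 56.3 in A/J (SD, n = 3 each). Its log2 difference of 1.21 did not pass (limma adjusted p = 0.056). Ank3, the ankyrin that anchors channels at nodes, had a log2 difference of -0.64. Nedd4l, a ubiquitin ligase that removes channels from the membrane, had -0.46, and neither passed (limma adjusted p = 0.275 and 0.295). With the mean of all tested probe sets standing for each gene, they had -0.38 and -0.22 (limma adjusted p = 0.325 and 0.660). These partner differences stood beside higher type I cell markers in DBA/2J: Insm1, a neuroendocrine transcription factor, had 1955 ± 515 in DBA/2J and 247 ± 97.5 in A/J, and Scg2, a vesicle granin, had 2969 ± 311 in DBA/2J and 896 ± 80.6 in A/J (SD, n = 3 each). The part of type I cell RNA in these differences was not tested.

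**Figure D4:**
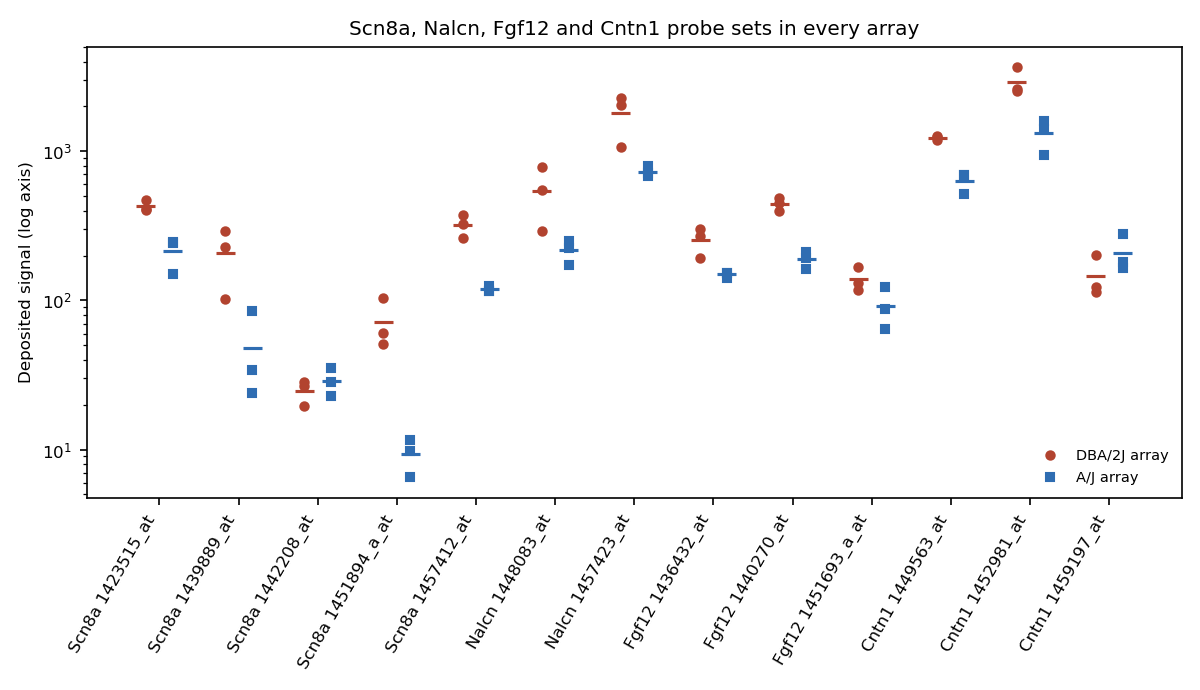
Deposited signal (log axis) of every probe set of Scn8a, Nalcn, Fgf12 and Cntn1, with 1 point per array and a bar at each strain's mean. All 3 DBA/2J arrays lay above all 3 A/J arrays on 4 of 5 Scn8a probe sets, both Nalcn probe sets, 2 of 3 Fgf12 probe sets and 2 of 3 Cntn1 probe sets. Over all 45037 probe sets, 18.0% did not overlap between the strains, in either direction. The genes drawn were named for their small p on these same arrays, so their share is no test against that value. Ank3 and Nedd4l, the named partners with negative differences, are not drawn.

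In the RefSeq annotation of GRCm38.p6, Scn3a, Scn1a, Scn9a and Scn7a lie on chromosome 2, Scn3b, Scn2b and Scn4b on chromosome 9, and Scn4a on chromosome 11. Scn1a, Scn9a and Scn7a follow each other with no other protein-coding gene between them, and Scn2b and Scn4b are also direct neighbours. The tested genes beside them did not pass. Scn2a, the neuronal alpha subunit next to Scn3a, had a log2 difference of 0.04 (limma adjusted p = 0.978), and Ttc21b, next to Scn1a, had -0.32 (limma adjusted p = 0.448). Zfp202 and Gramd1b, on either side of Scn3b, had 0.31 and 0.35 (limma adjusted p = 0.545 and 0.594).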

How the data were processed

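The deposited values are intensity signals of Affymetrix Mouse 430 2.0 arrays, hybridised with total RNA of pooled carotid bodies. Per the labels' protocols, RNA was extracted with Trizol and labelled after small-sample amplification, which starts at the poly(A) tail. The summarising software was not given in the sources used here. With 3 arrays in each strain, precision rests on that small number.

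The 64 control probe sets were left out. Names came from GEO's platform annotation, updated through RefSeq gene identifiers. Values were taken as log2(signal + 16), the upper 60% of probe sets were kept, and the strain contrast was fitted with limma 3.58.1 in R 4.3.3 (lmFit, eBayes with an intensity trend, two-sided, Benjamini-Hochberg, threshold 0.05). Figures used matplotlib 3.10.9. The procedure was tested on simulated data. A gene other than a subunit was read through its brightest probe set. Replicates are separate pools, and p-values measure the spread between them.

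The members, gene lists and alternatives were chosen with earlier results of these data known. Named genes are all subunits, partners that passed and the 4 others with the smallest p, up to 3 markers per list, protein-coding neighbours, and the 3 genes with the profile nearest to each of 3 subunits. Alternatives were other normalizations, pseudocounts of 1 and 64, other filters, no trend, array weights, each array left out, a title number as a block, and the muscle signal as a covariate. The stored promoter strand was checked by the place of TATAAA.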

Additional observations from a re-analysis of the deposited data

How the results depend on the processing

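The count of called probe sets over the array, 883, was 3007 with array weights, 63 without both A/J arrays 1 and 3, and 2725 under the series' rule. It was 0 with the title number as a fixed replicate block and 0 with the skeletal muscle mean as a covariate, and 341 to 1351 without each array in turn. An unadjusted limma p under 0.05 was reached by 1955 and 2753 probe sets in those fits that called 0. In the fixed block, only arrays that share a title number across the strains inform the strain contrast. Its median SE was 0.33 against 0.24 as reported, so its count of 0 does not show that the strain difference is absent. The subunit count of 1 was 5 with array weights, 3 under the series' rule, and 0 after quantile normalization, without the intensity trend, in the fixed replicate block, with the muscle covariate and without both A/J arrays 1 and 3. In the first 4 of these fits, 5, 7, 2 and 3 of the 12 subunit probe sets had an unadjusted limma p under 0.05. Over all 27022 probe sets tested, 4184, 4101, 1955 and 2753 did in the same fits. Without each array in turn the count was 0 to 1. With no filter on dim probe sets it was 1 as well, but the probe set was Scn9a 1442333_a_at in place of Scn7a 1436044_at. The 5 called with array weights were the 3 of Scn7a, Scn3b 1435767_at and Scn4b, all lower in DBA/2J. The partner count of 2 was 5 with array weights, 1 after scaling to one median, with no filter and without the trend, and 0 in the fixed replicate block, with the muscle covariate and without both A/J arrays. It was 0 to 3 without each array in turn. In the fixed replicate block 4 partners had an unadjusted limma p under 0.05, and with the muscle covariate 6 did. These stand beside 1955 and 2753 of all 27022 probe sets in those fits. Array weights moved the share of calls that were higher to 48.3%, against 56.9%.

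The muscle covariate raised the median SE from 0.24 to 1.06 and moved the median of all probe sets to 0.22, so signs under it are imprecise. It turned Scn3a 1439204_at to -3.03, Scn9a 1442810_x_at to 3.74 and 1457819_at to 2.11, Scn2b 1436134_at to -0.77 and 1457144_at to -0.44, Scn3b to 1.65 and Scn4b to 0.54. It also turned Nalcn to -0.34, Isl1 to -2.28, Nefm to 1.19, Pcdh10 to 0.94, Tarsl2 to 0.79, Fam110c to 0.61, Daam1 to -0.61, Klhdc8b to -1.11, Trub1 to -0.031, Scn2a to -3.65 and Gramd1b to -0.27. Scn9a 1442809_at, at 0.0033, turned to -0.0097 after scaling to one median, -0.27 with array weights and -0.0017 with the title number as a random block, and ranged from -0.35 to 0.23 without each array in turn. Scn9a 1442810_x_at turned to 0.32 in the fixed replicate block and 0.41 without both A/J arrays, and ranged from -0.46 to 0.11 without each array in turn. Scn2a turned to -0.50 in the fixed block and -0.65 without both A/J arrays, and ranged from -0.23 to 0.38 without each array in turn. The cause of these turns was not tested, and none of the values passed.

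Some array titles share a number whose meaning the labels do not give. The deviations of the arrays that share one correlated at -0.26 and 0.035 across probe sets, and those of arrays that do not at -0.26 to 0.20. So few values cannot show whether the number marks a batch, and it was used only as an alternative block. In the fixed replicate block Scn7a 1436044_at was at -0.80 (limma adjusted p = 0.506), and in the random block at -0.73 (limma adjusted p = 0.032). The fixed block draws the strain contrast only from arrays that share a number across the strains, so its p rests on few arrays.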

Other observations

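For the 3 subunit genes with the smallest p, the genes with the most similar profile over the 6 arrays were looked up by the root mean square difference of log2 values, each centred on its own mean, among 13005 genes. Nearest to Scn7a were Rad23b, a DNA repair protein (0.066), Pamr1 (0.070) and Phgdh, the first enzyme of serine synthesis (0.082). Phgdh read 866.4, 876.8 and 943.7 in DBA/2J, against 1450.4, 1458.2 and 1891.9 in A/J, and its log2 difference of -0.82 did not pass (limma adjusted p = 0.052). Nearest to Scn4b were Pcdh10, a protocadherin (0.059), Tarsl2 (0.064) and Fam110c (0.090). Nearest to Scn2b were Daam1, a formin that builds actin filaments (0.067), Klhdc8b (0.072) and Trub1, a pseudouridine synthase (0.098). Of the 9 genes 0 passed with limma, and 7 had an unadjusted p under 0.05. The likeness is a description over 6 arrays and includes the strain difference itself.

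Smooth muscle markers had a median log2 difference of -0.41, with 0 of 8 passing in limma and 3 at an unadjusted p under 0.05. Actg2, a smooth muscle actin, had 664 ± 153 in DBA/2J and 1228 ± 322 in A/J (SD, n = 3 each, limma adjusted p = 0.138).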
